A study of Sus scrofa with 6 samples.

Results

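Osteoclasts and the foreign body giant cells that form on implanted material both arise when cells of the monocyte and macrophage lineage fuse. Fusion needs the membrane protein DC-STAMP, and the fused cells secrete acid, the tartrate-resistant acid phosphatase TRAP, the protease cathepsin K and the gelatinase MMP9. Osteopontin and galectin 3 are made by macrophages and by these cells, among others, and take part in their adhesion. In the artery wall, smooth muscle cells and fibroblasts can also express several of the same genes, so none of them marks a giant cell alone.

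The 6 genes described here are DCSTAMP (DC-STAMP), ACP5 (TRAP), CTSK (cathepsin K), MMP9, SPP1 (osteopontin) and LGALS3 (galectin 3). Their members were all non-control probes whose name in the scanner files is a pig RefSeq transcript of these genes. This gave 19 of 43603 probes, with 7 for LGALS3, 4 for ACP5, 4 for SPP1, 2 for MMP9 and 1 each for CTSK and DCSTAMP. The genes were picked with the difference between the treatments already known, so the differences of their probes are given as descriptions, without a test. Every probe had 1 spot per array.

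The samples are punctured femoral arteries of pigs (Sus scrofa), analysed ex vivo: 3 whose puncture was closed with TAG, a vascular glue, and 3 closed with Exoseal, a marketed closure device. Each sample was hybridised to its own 1-colour Agilent array. The title of Exoseal replicate 1 (Exoseal 1) gives Exoseal and its treatment characteristic gives TAG, and it is grouped by title here. The labels give the left side for all 6 punctures and do not give the animals, their strain or age, or the time after closure, so the spread between samples may in part be technical.

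The 3 TAG arrays and Exoseal 1 shared a scan time in the file headers, and Exoseal 2 and Exoseal 3 shared another. From these times and the array positions, the former are taken here as the first slide and the latter as the second. The scanner's flag called 34.7% to 41.2% of probes well above background on TAG arrays, against 60.6% to 70.8% on Exoseal arrays. The 75th percentile of the processed signal, by which each array was scaled, was 19.3 to 36.4 on TAG arrays, against 61.0 to 151 on Exoseal arrays. The lowest signal that was well above background was 9.19 to 12.8 on the first slide, and 4.44 and 4.80 on the second. All signals below are the processed intensity of the scanner files before scaling, and all differences are log2 TAG minus Exoseal after scaling, unless stated. In such whole tissue samples, fewer cells of a type and less RNA per cell cannot be told apart.

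Most of the 19 probes had lower values in TAG. By mean, 16 of 19 were lower in TAG after scaling, as were 47.4% of all tested probes, and 19 of 19 were lower before scaling. A probe was tested across the whole array if it was well above background on at least 3 of the 6 arrays, which held for 18 of the 19 and for 22720 probes in all. At 5 of the 19 no TAG spot was well above background, so a direction at these probes rests on values at the limit of detection. Of the other 14 probes, 12 were lower in TAG, and the CTSK probe and 1 ACP5 probe were higher. After scaling, 11 of the 18 tested probes had all TAG arrays below all Exoseal arrays, a pattern found in 16.2% of all tested probes. The CTSK probe had all TAG arrays above all Exoseal arrays, as did 20.2% of all tested probes. Before scaling, TAG lay wholly below Exoseal at 14 of these 18 probes, against 57.4% of all tested probes. The members were chosen on this same difference, so nothing is read from these counts.

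**Figure D1:**
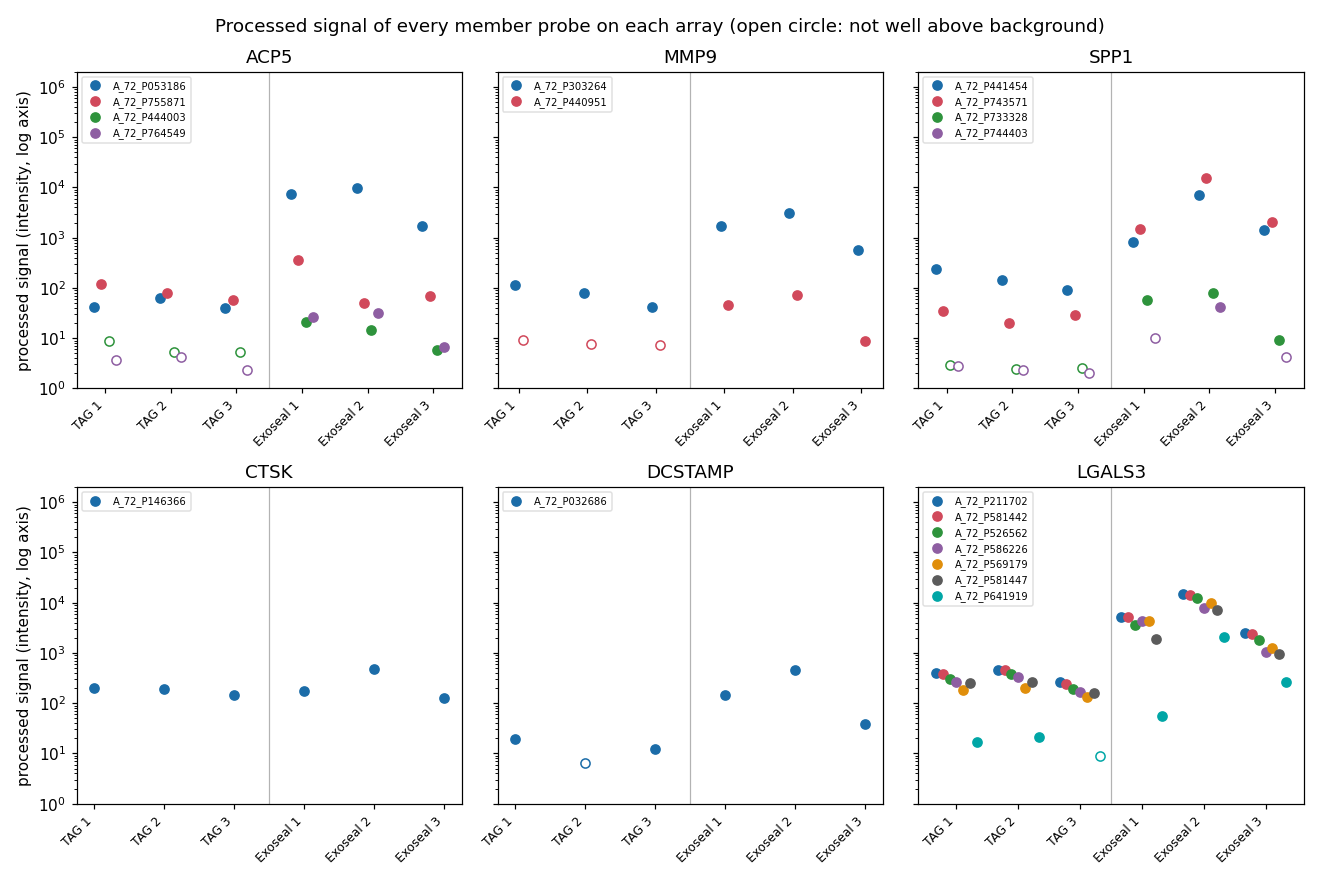
Processed signal (intensity, log axis) of every probe of the 6 genes on the 3 TAG arrays and the 3 Exoseal arrays, 1 panel per gene and 1 colour per probe, with open circles where the spot was not well above background. The 7 LGALS3 probes are all lower on the TAG arrays, while the CTSK signals of the groups overlap before scaling.

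DCSTAMP encodes the seven-pass membrane protein that osteoclast precursors and macrophages need in order to fuse. Its only probe, A_72_P032686, had signals of 19.2, 6.37 and 12.3 on TAG arrays 1 to 3, against 149, 461 and 38.6 on Exoseal arrays 1 to 3. It was well above background on 2 of 3 TAG arrays and on all 3 Exoseal arrays. Before scaling, every TAG signal was below every Exoseal signal. After scaling, its mean was -1.19 ± 0.72 (SD, n = 3) in TAG and 0.69 ± 1.20 (SD, n = 3) in Exoseal, a difference of -1.89 ± 0.66 (SE from limma). The groups then overlapped, because Exoseal 3 at -0.66 lay just below TAG 3 at -0.64. The TAG mean was 2.32 and 2.81 log2 units below Exoseal 1 and Exoseal 2, and 0.53 below Exoseal 3.

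ACP5 encodes TRAP, the acid phosphatase by which osteoclasts are stained. Its brightest probe, here and below meaning the highest on average in log2 signal across all 6 arrays, was A_72_P053186, with signals of 41.3, 62.6 and 39.9 on TAG arrays 1 to 3, against 7419.9, 9552 and 1679.6 on Exoseal arrays 1 to 3. All 6 were well above background, and the groups stood far apart, with no overlap. After scaling, the difference was -5.004 ± 0.59 (SE), and only 0.0264% of all tested probes had a lower one.

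The other ACP5 probes did not show this difference. A_72_P755871, well above background on all 6 arrays, had 117, 77.7 and 56.9 on TAG arrays 1 to 3, against 367, 49.2 and 70.5 on Exoseal arrays 1 to 3. Its highest signal was thus on Exoseal 1, and the other 5 arrays overlapped. After scaling, it was higher in TAG by 1.28 ± 0.86 (SE), but 0.81 lower than on Exoseal 1 alone, the Exoseal array on the same slide. The Exoseal arrays themselves spread widely at this probe, with Exoseal 1 above Exoseal 2 by 4.04 log2 units.

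The remaining pair of ACP5 probes was dim. A_72_P444003 had 8.75, 5.22 and 5.35 on TAG arrays, against 21.4, 14.8 and 5.79 on Exoseal arrays, with no TAG spot well above background. A_72_P764549 had 3.61, 4.21 and 2.32 on TAG arrays, against 25.9, 31.8 and 6.66 on Exoseal arrays, again with no TAG spot well above background. Their unscaled signals were lower in TAG by mean, and A_72_P764549 had no overlap. After scaling, their differences were 0.74 and -0.72, and no fold could be bounded for either. The 4 probes carry the same RefSeq transcript in their names, so the files do not tell which part of the transcript each reads. The size given for ACP5 therefore rests on 1 of its 4 probes. After scaling, 2 of the 4 were lower in TAG, and within the slide that held both groups 4 of 4 were.

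CTSK encodes cathepsin K, the main collagen-degrading protease of osteoclasts, which fibroblasts and smooth muscle cells can also make. It was the gene of the 6 that went the other way. Its probe, A_72_P146366, had 198, 194 and 146 on TAG arrays 1 to 3, against 177, 485 and 127 on Exoseal arrays 1 to 3. It was well above background on all 6 arrays, and before scaling the groups overlapped, with Exoseal 2 the highest. After scaling, its mean was 2.76 ± 0.27 (SD, n = 3) in TAG and 1.37 ± 0.31 (SD, n = 3) in Exoseal, a difference of 1.39 ± 0.42 (SE). The direction thus comes with the scaling of whole arrays. It was 1.39 against Exoseal 1, 1.08 against Exoseal 2 and 1.71 against Exoseal 3, so no single Exoseal array set it, and median scaling gave the lowest value among the scalings tried, 0.93.

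MMP9 encodes gelatinase B, a secreted protease of neutrophils, macrophages and osteoclasts. Its brighter probe, A_72_P303264, had 116, 81.0 and 42.2 on TAG arrays 1 to 3, against 1721, 3072 and 561 on Exoseal arrays 1 to 3, all well above background and without overlap. Its difference was -2.58 ± 0.50 (SE) after scaling, and -3.17, -2.86 and -1.72 against Exoseal arrays 1, 2 and 3. The other probe, A_72_P440951, had 9.39, 7.72 and 7.41 on TAG arrays, none well above background, against 46.5, 73.8 and 8.74 on Exoseal arrays. Its signals were also lower in TAG by mean, but Exoseal 3 lay below TAG 1. After scaling, its difference was -0.23 and no fold could be bounded.

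**Figure D2:**
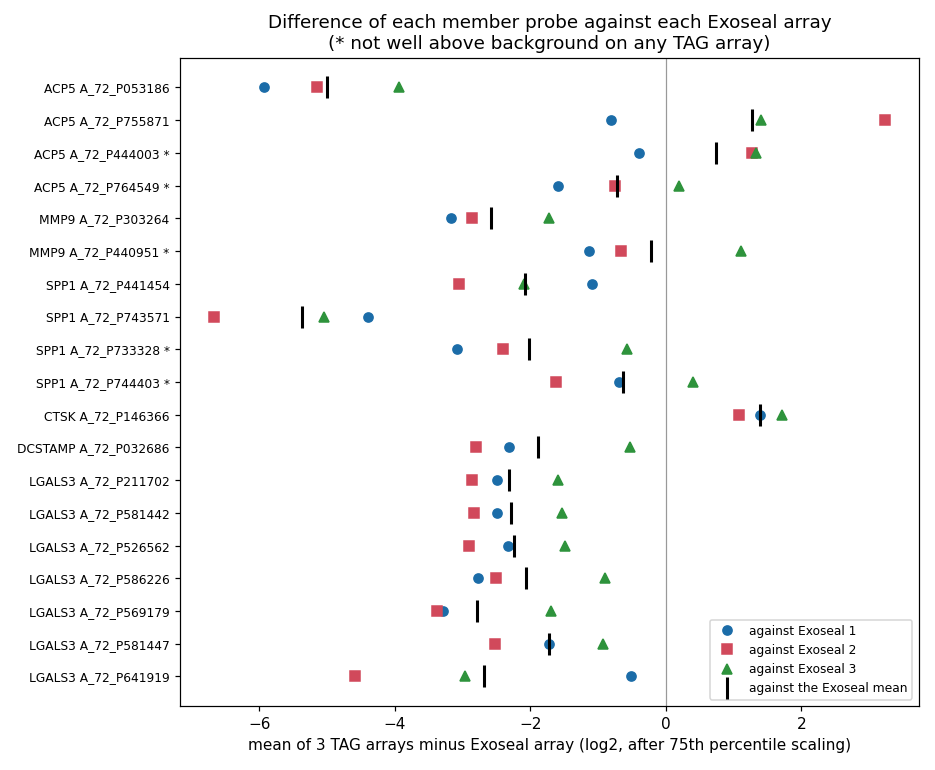
Mean of the 3 TAG arrays minus each Exoseal array (log2, after scaling) for the 19 probes, with a bar for the difference from the Exoseal mean and a star at the 5 probes where no TAG spot was well above background. The difference against Exoseal 3 (triangles) is the highest of the 3 for most probes, and ACP5 A_72_P755871 and LGALS3 A_72_P641919 stand out by the place of Exoseal 1 (circles).

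SPP1 encodes osteopontin, a phosphorylated matrix protein that binds integrins and CD44 and is made by macrophages, osteoclasts, bone cells and smooth muscle cells that have left the contractile state. The brightest of its probes by mean log2 signal, A_72_P441454, had 234, 147 and 89.5 on TAG arrays 1 to 3, against 807, 6943 and 1450.3 on Exoseal arrays 1 to 3. All TAG signals were below all Exoseal signals, and the difference after scaling was -2.08 ± 0.55 (SE).

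A second SPP1 probe had a far larger difference. A_72_P743571 had 34.1, 20.0 and 28.5 on TAG arrays 1 to 3, against 1481, 15744 and 2064 on Exoseal arrays 1 to 3. All 6 values were well above background, with no overlap. Its difference was -5.37 ± 0.62 (SE), which is 41.4-fold lower in TAG, and only 0.0176% of all tested probes had a lower one. The value against each Exoseal array was -4.40, -6.67 and -5.04 for Exoseal 1, 2 and 3, against -1.09, -3.05 and -2.10 at A_72_P441454. Both probes thus placed Exoseal 2 highest and Exoseal 1 lowest among the Exoseal arrays, and they differed in the size of the step to TAG. The mean of log2 signals puts A_72_P441454 first, and the mean of the unlogged signals would put A_72_P743571 first, so the value that stands for SPP1 depends on that choice.

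The dim SPP1 probes had the same direction by mean. A_72_P733328 had 2.99, 2.46 and 2.56 on TAG arrays, none well above background, against 58.8, 81.1 and 9.22 on Exoseal arrays, all well above background. It was at least 1.05-fold lower in TAG, where the bound sets the Exoseal mean against the lowest TAG signals that count as well above background, on scaled values. A_72_P744403 had 2.76, 2.34 and 2.05 on TAG arrays, against 9.96, 42.0 and 4.17 on Exoseal arrays. It was well above background on Exoseal 2 alone, was the probe not tested, and has no bound.

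LGALS3 encodes galectin 3, a lectin that binds beta-galactosides and is abundant in macrophages. It had the most probes and the closest agreement between them. The brightest, A_72_P211702, had 394, 454 and 261 on TAG arrays 1 to 3, against 5264, 15029 and 2513 on Exoseal arrays 1 to 3. At all 7 LGALS3 probes every TAG signal was below every Exoseal signal before scaling. Scaled differences ran from -2.79 (A_72_P569179) to -1.73 (A_72_P581447), with a median of -2.29, and after scaling the groups did not overlap at 6 of 7 probes. The 7 probes read the same transcript in the same 6 samples, so they are repeat readings of a gene and not replicates of the treatment.

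Agreement also held between arrays of a group at 6 of the LGALS3 probes. There TAG 2 was the highest and TAG 1 the lowest TAG array after scaling, and Exoseal 3 was the lowest Exoseal array. Exoseal 1 was above Exoseal 3 by 0.81 to 1.87 log2 units at these 6 probes. The exception was A_72_P641919, with 17.1, 21.3 and 8.79 on TAG arrays 1 to 3 (TAG 3 not well above background), against 55.0, 2039 and 267 on Exoseal arrays 1 to 3. Its Exoseal 1 signal was near the TAG signals, and after scaling Exoseal 1, at -0.31, lay between the TAG arrays, so the groups overlapped. Against Exoseal 1 its difference was -0.52, while at the other LGALS3 probes it was -3.29 to -1.73. At this probe Exoseal 1 was 4.07 log2 units below Exoseal 2, and at the other 6 probes it was between 0.79 below and 0.27 above.

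**Figure D3:**
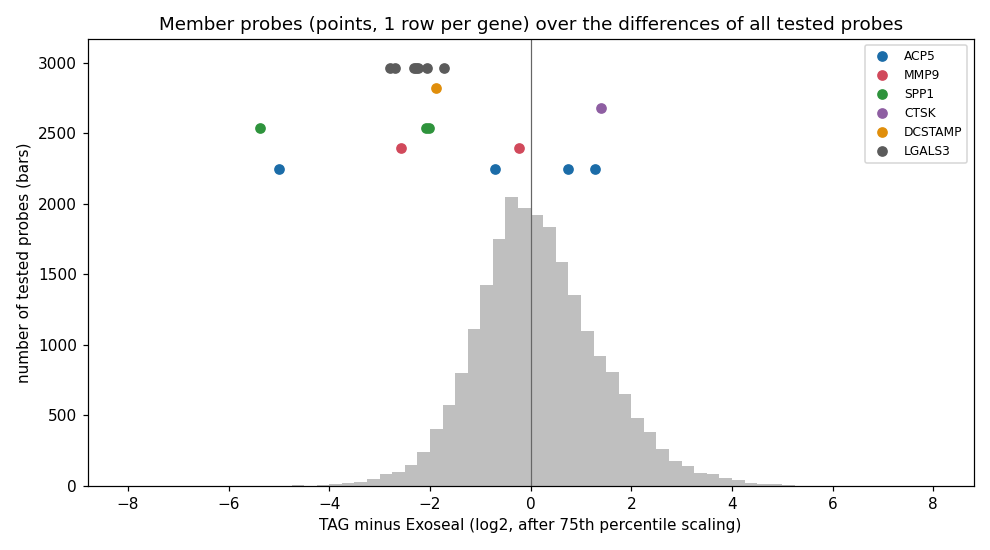
Number of tested probes (bars, 22720 in all) by TAG minus Exoseal difference on the log2 scale, with the 18 tested probes of the 6 genes as points, 1 row and colour per gene at heights chosen for legibility. The SPP1 and ACP5 points at -5.37 and -5.004 lie in the far lower tail, the LGALS3 points lie together between -2.79 and -1.73, and CTSK lies above 0.

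Within the Exoseal group no single order of the arrays was shared by all 6 genes, but Exoseal 3 was often the lowest. It was the lowest Exoseal array at 14 of the 18 tested probes after scaling, against 21.0% of all tested probes. By the brightest probe this held for 5 of 6 genes, CTSK among them, with SPP1 as the exception. Exoseal 2 was the lowest Exoseal array at 1 of the 18 probes, ACP5 A_72_P755871, against 47.6% of all tested probes. The contrast with other probes depends on the scaling: before scaling, Exoseal 3 was lowest at 14 of the 18 probes and at 56.2% of all tested probes, and Exoseal 2 at 1 of the 18 and at 5.98% of all tested probes. The step from Exoseal 3 to Exoseal 1 was 1.98 for ACP5, 1.45 for MMP9, 1.78 for DCSTAMP, 0.90 for LGALS3 and 0.32 for CTSK at the brightest probe, and -1.01 for SPP1. For all tested probes the median step was 0.15, with quartiles of -0.63 and 0.93. CTSK thus had the same lowest Exoseal array as ACP5, MMP9, DCSTAMP and LGALS3, from which it differed in its direction between groups. These orders were noticed in the data and not tested, 7 of the 18 probes are of LGALS3, and all probes share the same 3 arrays.

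Among TAG arrays no order was shared by all genes. TAG 2 was the highest TAG array at 9 of 18 tested probes, 7 of them LGALS3 probes, against 35.3% of all tested probes, and before scaling also at 9 of 18, against 17.4%. The scaled values of the TAG group were close together, with an SD from 0.07 (ACP5 A_72_P755871) to 0.72 (DCSTAMP). The SD in the Exoseal group ran from 0.31 (CTSK) to 2.05 (LGALS3 A_72_P641919).

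Within the slide that held both groups, where Exoseal 1 is the only Exoseal array, 18 of 19 probes were lower in TAG, all but CTSK. There the fitted difference was -5.92 for ACP5 A_72_P053186, -3.17 for MMP9 A_72_P303264, -2.32 for DCSTAMP, -4.40 for SPP1 A_72_P743571 and -2.49 for LGALS3 A_72_P211702. At the brightest SPP1 probe it was -1.09, against -2.57 when Exoseal 1 was left out. Counting Exoseal 1 as TAG, as its treatment characteristic has it, gave -3.06 for ACP5 A_72_P053186, -1.50 for MMP9 A_72_P303264 and -1.60 for LGALS3 A_72_P211702, with 14 of 19 probes lower in TAG. On the deposited value table of the authors, 16 of 19 were lower in TAG, with -5.27 at ACP5 A_72_P053186, -5.75 at SPP1 A_72_P743571 and 1.56 at CTSK. Over all tested probes the median difference was -0.09 within the slide, 0.19 with Exoseal 1 counted as TAG and -0.06 on the authors' table.

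**Figure D4:**
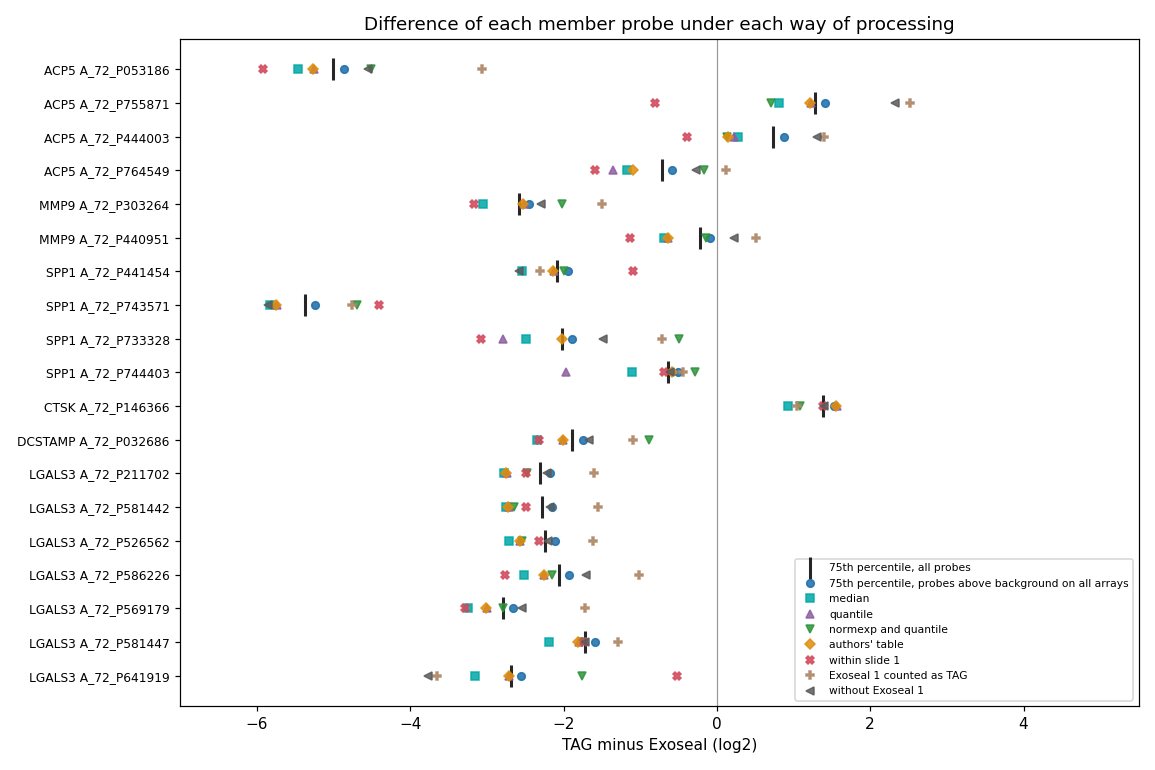
TAG minus Exoseal difference (log2) of each of the 19 probes under 9 ways of processing, 1 marker per way, with the black bar for the scaling used in the text. ACP5 A_72_P053186, MMP9 A_72_P303264 and all SPP1, DCSTAMP and LGALS3 probes stay below 0 and CTSK above 0 under each, while the other 3 ACP5 probes and MMP9 A_72_P440951 cross 0 under some.

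The named genes whose brightest probe followed each member most closely over the 6 arrays were ranked by Pearson's r among 1608 named genes. With so few arrays in 2 groups such values are a description, and between 14 (DCSTAMP) and 103 (SPP1) genes had an r above 0.9 with a member. For ACP5 they were CD46 (0.990), CCR1 (0.989) and ALDH2 (0.985). For MMP9 they were FABP5 (0.985), PDYN (0.978) and ABHD5 (0.977), and for SPP1 SMAP2 (0.996), EDNRB (0.994) and CHCHD1 (0.992). For LGALS3 they were IDH2 (0.994), GP91-PHOX (0.990) and CCR1 (0.989), for DCSTAMP AMY2 (0.989), PKIA (0.975) and CCNG1 (0.944), and for CTSK TOR1A (0.996), PTGES (0.993) and YIPF5 (0.988). CD46 and EDNRB had no TAG spot well above background. CCR1, a receptor for chemokines on monocytes and on osteoclast precursors, was thus in the first 3 of both ACP5 and LGALS3.

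Calls among other genes of osteoclast and giant cell formation were few, and no more frequent than among all tested probes. In 6 lists of such genes, 56 genes could be tested, of which 2 fell and 3 rose in TAG at an adjusted p of 0.05 in limma. Among all tested probes 3.69% fell and 7.06% rose, together 10.8%. The median difference of the 56 genes was -0.17, beside 0.08 over all tested probes. All of these calls were lost when any TAG array, Exoseal 2 or Exoseal 3 was left out, and without Exoseal 1 there were 6 that fell and 10 that rose.

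Of 12 genes for signals that drive differentiation, CCR1 fell by 4.52 ± 0.53 (SE) on the log2 scale (limma, adjusted p = 0.0196). It had 22.5, 21.0 and 15.1 on TAG arrays 1 to 3, against 1456, 4087 and 504 on Exoseal arrays 1 to 3, and its other tested probe had -5.07. The rest of that list did not pass. CCL2, a monocyte chemokine, had -1.55, and its other tested probe had 0.67. TYROBP, the adaptor of TREM2, had -0.19 (limma adjusted p = 0.845) and was above background on none of the TAG arrays. The call for CCR1 was also lost with Exoseal 1 counted as TAG (-3.14).

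Of 8 genes for transcription and signal transduction in osteoclasts, SYK, a tyrosine kinase below immunoreceptors, rose by 2.26 ± 0.44 (SE, limma adjusted p = 0.0250). Its signals of 19.9, 27.5 and 19.1 on TAG arrays overlapped those of 11.5, 28.3 and 10.2 on Exoseal arrays before scaling. SYK had 0.54 with normexp and quantile scaling, 1.80 with median scaling and 1.66 with Exoseal 1 counted as TAG, none past the threshold. NFATC1, the main transcription factor of osteoclast formation, had -0.58 (limma adjusted p = 0.486).

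Of 7 genes for fusion and adhesion, ITGB2, the beta subunit shared by integrins of leukocytes, fell by 1.89 ± 0.52 (SE, limma adjusted p = 0.0487), above background on 2 of 3 TAG arrays. With Exoseal 1 counted as TAG, ITGB2 had -1.49 and did not pass. It did not pass with the 75th percentile of probes above background on all arrays (-1.76), with median scaling (-2.36), with normexp and quantile scaling (-0.86), with slide as a block (-1.85) or within slide 1 (-1.81). ITGB3, the integrin chain that joins the alpha v chain in the osteoclast receptor for osteopontin, had 1.65 (limma adjusted p = 0.0507), and ITGAV, the alpha v chain, had -1.93 (limma adjusted p = 0.0604). ITGB3 signals were 25492, 17201 and 12829 on TAG arrays 1 to 3, against 15063, 20789 and 20301 on Exoseal arrays 1 to 3, so they overlapped before scaling, and its other tested probe had -0.38. The other 3 ITGAV probes tested had 0.16 to 1.37.

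None of 4 genes of acid secretion and bone resorption passed (proton pump subunits ATP6V1A at 0.74 and ATP6V1H at -1.01). CALCR, the calcitonin receptor of mature osteoclasts, had 7.72, 2.59 and 3.002 on TAG arrays, none well above background, against 23.4, 18.7 and 16.3 on Exoseal arrays, all well above background. After scaling, its groups overlapped, with a difference of -0.59 (limma adjusted p = 0.486). None of 14 genes for lysosomal cathepsins, matrix proteases and their inhibitors passed. There MMP14, a membrane protease, had -1.22 (limma adjusted p = 0.124), MMP2 had -0.14 and TIMP2, an inhibitor, 1.68 (limma adjusted p = 0.0651). Of 11 genes for galectins and matrix ligands, SPARC and TNC, matrix proteins of wound repair, rose by 2.01 ± 0.47 and 1.94 ± 0.48 (SE). The other measured galectins did not pass, with LGALS1 at 0.00, LGALS4 at -0.29, LGALS8 at -0.99 and LGALS9 at 0.19, beside -2.31 at the brightest LGALS3 probe. The other tested probe had 1.15 for LGALS1, -1.44 for LGALS8 and -0.53 for LGALS9. Neither SPARC nor TNC passed with median scaling (1.54 and 1.48), with slide as a block (1.72 and 1.82) or within slide 1 (1.42 and 1.68). SPARC also did not pass with quantile scaling (1.48), with normexp and quantile scaling (1.39) or in the authors' table (1.46), and TNC did not with Exoseal 1 counted as TAG (1.65).

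**Figure D5:**
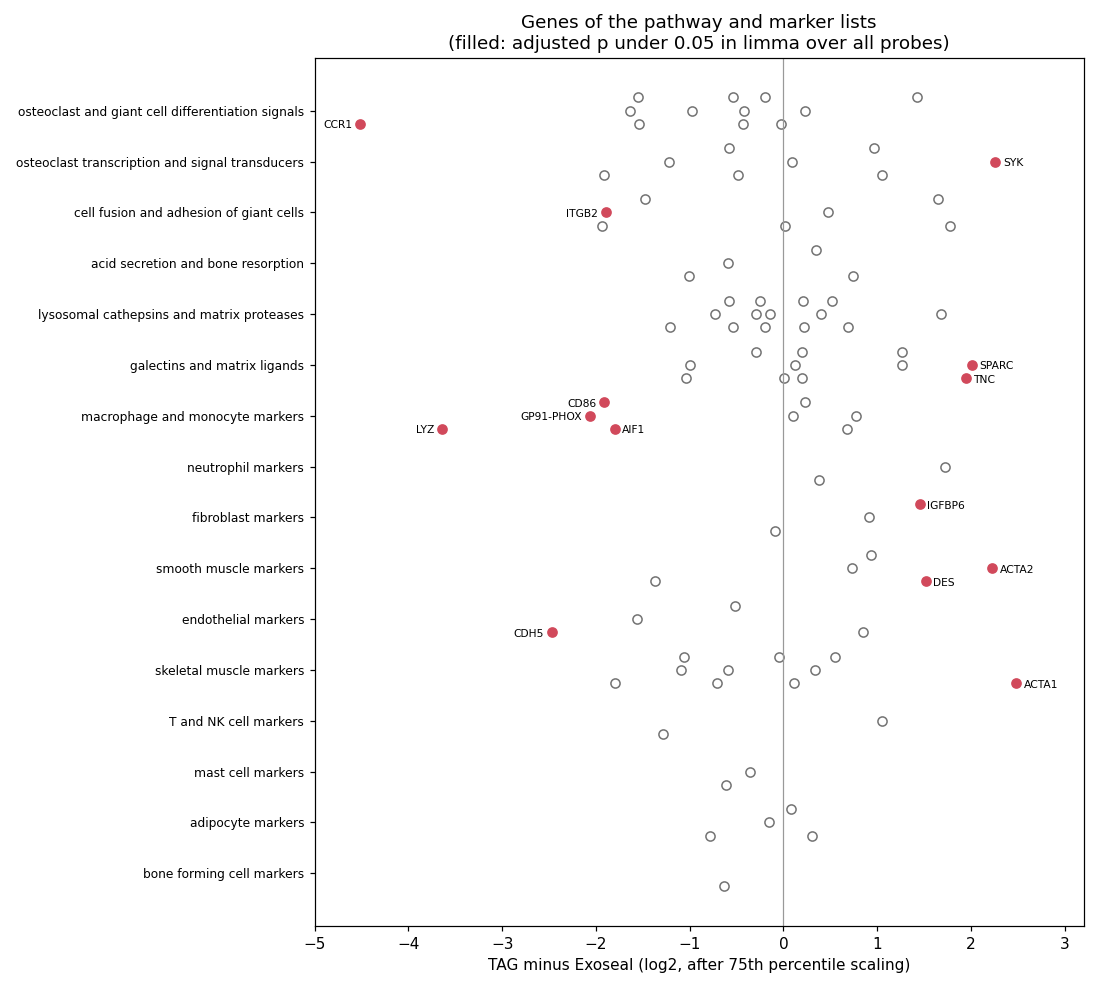
TAG minus Exoseal difference (log2, after scaling) of each tested gene of the 6 pathway lists and of the marker lists of other cell types, by its brightest probe, with filled named points for an adjusted p under 0.05 in limma over all tested probes. In the macrophage list 4 genes fell, and the 5 calls in the 6 pathway lists lie on both sides of 0.

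The label of an osteoclast-like giant cell could be checked only in part. Of the defining genes that could be tested besides the 6, CALCR, ITGB3 and NFATC1 did not pass, and CALCR was above background on none of the TAG arrays. OCSTAMP, ATP6V0D2, OSCAR and TNFRSF11A had no probe that could be named. CTSK, with ACP5 the enzyme most used to define osteoclasts, was higher in TAG after scaling, so the 6 genes do not move as a unit there. Before scaling, its difference was -0.32 with overlapping groups. The 6 genes are not called a cell type here.

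Markers of several other cell types also differed between the groups. Of 8 macrophage and monocyte genes tested, 4 fell. Their differences were -3.64 ± 0.66 for LYZ (lysozyme), -2.07 ± 0.51 for GP91-PHOX (a subunit of the phagocyte oxidase), -1.92 ± 0.52 for CD86 (a costimulatory ligand) and -1.80 ± 0.44 for AIF1, which binds calcium in macrophages (SE). CD86 was well above background on 1 of 3 TAG arrays, with 13.7, 9.60 and 5.68, so the size of its difference rests in part on values at the limit of detection, and it had -0.69 with Exoseal 1 counted as TAG and did not pass. The other 4 had 0.78 (CD74), 0.68 (C1QA), 0.23 (CD14) and 0.10 (CD163). The summed signal of the 9 macrophage genes named on the array, in multiples of each array's 75th percentile, was 16.6 to 26.0 in TAG and 49.4 to 97.2 in Exoseal, and 8 of the 9 were well above background on some TAG array. The summed signal of 3 fibroblast genes was 266 to 295 in TAG and 120 to 161 in Exoseal (IGFBP6 rose by 1.45 ± 0.39). DCN (decorin) gave most of that sum on every array, had 0.91 and did not pass. THY1 had -0.09, with no TAG spot well above background. The summed signal of 5 smooth muscle genes was 464 to 551 in TAG and 251 to 283 in Exoseal (ACTA2 rose by 2.22 ± 0.43 and DES by 1.52 ± 0.39). The smooth muscle genes did not all run one way, since MYLK, a myosin kinase, had -1.37 ± 0.56 and did not pass, and CNN1 (calponin) had 0.73 and did not pass. Both sums were higher in TAG after scaling, as CTSK was. Before scaling, no gene of either sum had all TAG signals above all Exoseal signals. ACTA2, DES and IGFBP6 then overlapped between the groups, and MYLK and CNN1 were lower on every TAG array. CNN1 had 6999, 5975 and 4761 on TAG arrays 1 to 3, against 9793, 17498 and 8789 on Exoseal arrays 1 to 3. The part of these cell types in the differences of the 6 genes was not tested.

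Among further marker lists, CDH5 (VE-cadherin) fell by 2.47 ± 0.56 as 1 of 4 endothelial genes and ACTA1 (skeletal muscle actin) rose by 2.48 ± 0.40 as 1 of 10 skeletal muscle genes. As the mean of its probes ACTA1 had 0.30 and did not pass. All 9 marker calls, like those of the pathway lists, were lost when any TAG array, Exoseal 2 or Exoseal 3 was left out, without the filter on dim probes and with the replicate block. Under the other settings LYZ passed throughout, and each of the other 8 was lost under at least 1. None passed among 2 neutrophil genes (S100A12 1.72, S100A8 0.38), 2 T and NK cell genes (CD8A 1.05, and GZMB, with no TAG spot above background), 2 mast cell genes (GATA2 -0.62, KIT -0.36), 4 adipocyte genes (LPL -0.79, PPARG 0.31) or for COL10A1, the 1 gene tested of bone forming cells, which was above background on none of the TAG arrays. None of the B and plasma cell genes could be tested.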

How the data were processed

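The deposited intensity values came from Feature Extraction 11.0.1.1 of Agilent, per the file headers, whose processed signal is corrected for background within an array and not scaled between arrays. A table deposited by the authors holds log2 values of 43663 probes whose 6 columns share a median of 3.40, an upper quartile and a maximum. The sources used here do not name its scaling method.

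Spots with an outlier flag and 223 probes with no usable spot on some array were left out. Log2 processed signals minus each array's 75th percentile entered a linear model in limma 3.58.1 under R 4.3.3 (TAG minus Exoseal, two-sided, no covariates), with Benjamini-Hochberg adjustment over 22720 probes that were well above background on at least 3 arrays, after checks on simulated data. Probes were named through RefSeq accessions in a table of assembly Sscrofa11.1 (5435 of 43380 probes had 1 symbol). A list gene stands by the probe with the highest mean signal. Of each list, up to 4 genes past an adjusted p of 0.05 with the largest difference are named, or else the 2 with the smallest p, beside further members given as values and chosen after they were seen. The scanner files hold the median and not the mean spot signal, so normexp (offset 50) used the median. Members, lists and tests were chosen with earlier results of these data known. The number of arrays limits the precision.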

Additional observations from a re-analysis of the deposited data

How the results depend on the processing

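The number of probes past the threshold, 2443 in the text, was 1049 with median scaling (492 higher and 557 lower in TAG), 1580 with normexp and quantile scaling, 782 with slide as a random block (correlation 0.418) and 3788 with Exoseal 1 counted as TAG. Without a filter on dim probes it was 0 of 43380 in limma, with 14128 at an unadjusted p under 0.05. Of the calls, 65.7% were higher in TAG in the text, 46.9% with median scaling and 51.7% with quantile scaling, and the median of all differences moved to -0.39 with median scaling. Leaving out single arrays gave 0 to 7715 calls, the highest without Exoseal 1. For the pathway lists, 5 calls became 1 with median scaling, 2 with normexp and quantile scaling, 2 with slide as a block, 0 without the filter and 0 to 16 with single arrays left out.

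Whether the replicate numbers pair the samples is not known, since the labels do not give the animals. The deviations of same-numbered arrays from their group means correlated at -0.18, 0.09 and -0.07. These values cannot decide it, because differences between slides and arrays also enter the deviations. With the replicate numbers as a replicate block, 0 probes and 0 list genes passed in limma, with 6381 probes at an unadjusted p under 0.05.

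Among probes above background on all 6 arrays, 10 of 12 member probes were lower in TAG. Of 315 recomputed member differences, 288 moved by less than the spread between replicates, 22 moved by more with the same sign, and 5 turned sign. The 288 include settings that could not move a difference, namely the other filters on dim probes and the replicate block, so they overstate how stable the values are. The sign turned within slide 1 at ACP5 A_72_P755871 (-0.81) and A_72_P444003 (-0.39). With Exoseal 1 counted as TAG it turned at ACP5 A_72_P764549 (0.12) and MMP9 A_72_P440951 (0.51), and without Exoseal 1 at MMP9 A_72_P440951 (-0.90 to 0.23 with single arrays left out). Of these, only A_72_P755871 was well above background on any TAG array. The cause was not tested.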
